A study of Mus musculus with 34 samples.

Results

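Transcripts of the SRC and ABL family kinases were followed in mouse pre-B acute lymphoblastic leukaemia cells kept under nilotinib or lonafarnib until the cultures had recovered. The members were taken by gene symbol, Abl1, Abl2, Lyn, Fgr, Blk, Fyn, Lck, Yes1 and Src, with the probeset of highest mean where a symbol had several. Of the 9 named kinases 7 had a probeset, 1 each, among 19938 genes with a symbol. Lyn and Lck are not listed in the probe annotation used here and were not analysed.

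Both families are tyrosine kinases of the cytoplasm that carry SH3 and SH2 domains ahead of the kinase domain. SRC kinases work at the inner face of the cell membrane, where they phosphorylate the signalling motifs of antigen and Fc receptors, and CSK restrains them by phosphorylating a tyrosine in their tail. ABL kinases pass growth and adhesion signals to the cytoskeleton, and joining of BCR to ABL1 produces the unrestrained kinase that drives Philadelphia chromosome-positive leukaemia. Nilotinib blocks ABL kinases, KIT, PDGF receptors, DDR kinases and the CSF1 receptor. Lonafarnib inhibits farnesyltransferase, the enzyme that anchors Ras and further proteins to membranes through a lipid.

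Expression was read on 34 Affymetrix Mouse Gene 1.0 ST arrays of the lines Bin-2, from a leukaemia on a mixed genetic background, and 8093, from one on an inbred f11 C57Bl/6J background. Each line came from a BCR/ABL transgenic mouse, so every group carries the transgene. The promoter that drives it is not given in the sources used here. The loosely attached or floating leukaemia cells were harvested, and all cultures grew with recombinant IL-3 on irradiated mouse embryonic fibroblasts. Nilotinib was used at 50 nM in Bin-2 and 20 nM in 8093, and lonafarnib at 0.25 µM in Bin-2 and 1 µM in 8093. RNA came from the start (day 0), a midpoint (day 3, but day 4 in 8093 with lonafarnib) and an end. The end was day 21 (Bin-2, nilotinib), day 30 (Bin-2, lonafarnib), day 20 (8093, nilotinib) or day 26 (8093, lonafarnib). Midpoint cultures were 5 to 10% viable, or 20% viable in the 8093 lonafarnib course, and end cultures about 90% viable. A group comprised 3 arrays, apart from the 2 end groups of 8093 with 2 arrays each. Each array had its own plate per the labels, but midpoint samples came from a larger dish or from pooled dishes. Dish format and midpoint therefore cannot be told apart. No untreated cultures were sampled at the midpoint or end days, so time in culture and drug cannot be told apart within a course.

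Values are log2 signals, and a change is a difference of group means, also in log2, printed ± its standard error (SE) from a limma fit to all 34 arrays. A gene was called, and is said to have risen or fallen, at a Benjamini-Hochberg adjusted p below 0.05 over 19938 genes. Arrays of 2 groups had narrow value distributions, with a mean interquartile range of 2.91 (8093, nilotinib midpoint) and 3.11 (Bin-2, lonafarnib midpoint), while the remaining groups had 3.43 to 3.65. The median change of all genes was -0.15 at the nilotinib end of 8093 and within 0.03 of 0 in every other comparison with the start.

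The labels name every sample pre-B ALL, and the mean of 17 measured pre-B cell markers lay between 8.13 and 8.99 in 11 of the 12 groups. At the nilotinib end of 8093 it was 5.72, and Igll1, a chain of the pre-B cell receptor, averaged 7.50 there against 12.02 at the start of that course. The mean of 13 mast cell markers over the 3 times of that course was 4.03, 9.12 and 10.88, and Cpa3, a mast cell protease, reached 13.59. These markers had means of 4.45, 4.43 and 6.95 in Bin-2 with nilotinib, 4.49, 4.40 and 4.14 in Bin-2 with lonafarnib, and 3.96, 6.13 and 5.13 in 8093 with lonafarnib. That of 15 macrophage markers was 5.45, 7.77 and 8.61 in Bin-2 with nilotinib, and 4.80, 8.25 and 8.23 in 8093 with nilotinib. Granulocyte markers (12 genes, group means of 4.02 to 4.59) and T and NK cell markers (14 genes, 3.997 to 4.51) stayed low in every group. The mean of 14 fibroblast markers was 4.92, 5.36 and 5.22 in Bin-2 with nilotinib and 5.02, 5.63 and 4.80 with lonafarnib. In 8093 it was 4.83, 6.08 and 5.35 with nilotinib and 4.79, 5.105 and 4.78 with lonafarnib. At the Bin-2 midpoints 5 (nilotinib) and 7 (lonafarnib) of them rose, where 3.47% and 16.5% of all genes were called. At those of 8093 10 and 1 rose, where 50.1% and 10.8% were. From midpoint to end 11 fell in Bin-2 with lonafarnib, where 29.7% of genes were called. The mean of 5 erythroid and platelet markers was 4.66, 5.603 and 6.03 over the nilotinib course of Bin-2 and 4.52, 6.28 and 7.57 over that of 8093. All 5 rose by that end of 8093, where 44.5% of all genes were called. Under lonafarnib the mean of these 5 was 4.77, 5.402 and 4.78 in Bin-2 and 4.66, 5.26 and 4.93 in 8093. In these bulk samples fewer cells of a type and less RNA per cell cannot be told apart, and the part of other cells in the changes below was not tested.

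All 7 measured kinases changed in the nilotinib course of 8093. At the midpoint Blk and Fgr rose and Abl2, Fyn and Yes1 fell, so 5 of 7 were called where 50.1% of all genes were. At the end Fgr and Src had risen and Abl1, Abl2, Blk, Fyn and Yes1 had fallen relative to the start, 7 of 7 against 44.5% of all genes. Between end and midpoint 5 of 7 were called (Abl1, Blk, Fyn and Yes1 lower, Src higher), against 54.5% of all genes. The median change at the end was -0.82 over the 7 kinases and -0.15 over all genes, and the median size of change 0.89 and 0.35.

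In the lonafarnib course of 8093 Blk rose and Yes1 fell at the midpoint, 2 of 7 where 10.8% of genes were called. The same pair was called at the end, where 8.71% of all genes were, and between end and midpoint Src alone fell, where 6.26% of genes were called. In Bin-2 with nilotinib limma called 0 of 7 kinases at the midpoint and 3.47% of all genes. There 2 kinases passed an unadjusted p of 0.05, among 3017 genes that did. A fit with array weights called 2 kinases, and its share of all genes was not taken. At that end Src rose and Fyn fell, 2 of 7 against 8.89% of genes, and Src was the 1 kinase higher at the end than at the midpoint, where 1.41% of genes were called. With lonafarnib in Bin-2 Abl1 rose at the midpoint, 1 of 7 where 16.5% of genes were called. At that end Abl1 rose and Fyn fell, 2 of 7 against 8.07%, and between end and midpoint Blk was higher and Fyn lower, 2 of 7 against 29.7%.

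The start arrays of both courses of a line had not yet met drug. Between the lonafarnib and the nilotinib starts limma called 0 of 7 kinases and 0.00% of genes in Bin-2, and 0 of 7 and 0.00% in 8093. At an unadjusted p below 0.05 there were 0 kinases in either line, among 1085 genes in Bin-2 and 2350 in 8093, and a fit with a trended, robust prior also called 0 kinases.

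**Figure D1:**
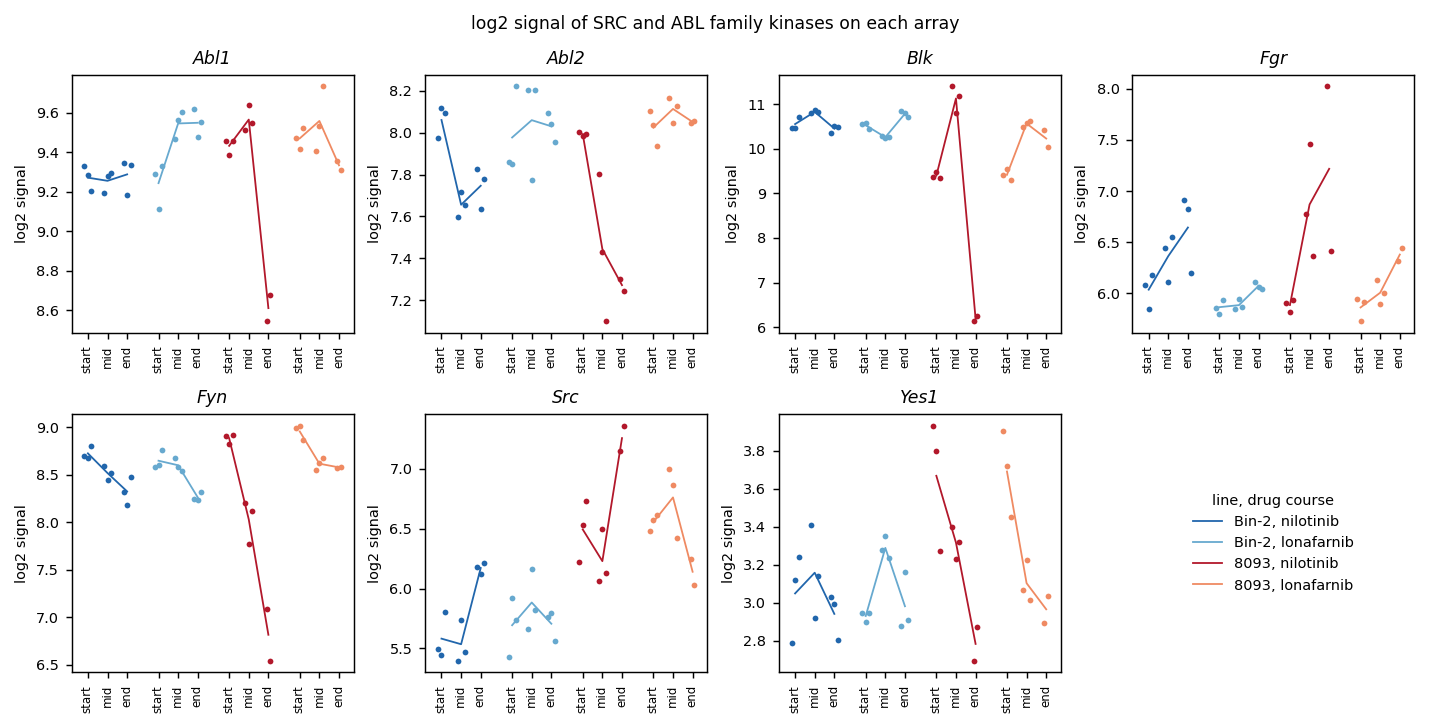
Each panel plots the log2 signal of 1 kinase on the vertical axis for every array (points) and the group mean (line) at the start, midpoint and end of the 4 courses, with Bin-2 left of 8093. Blk in 8093 with nilotinib reached 11.13 at the midpoint and 6.19 at the end, and the vertical axes differ between panels and do not start at 0.

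**Figure D2:**
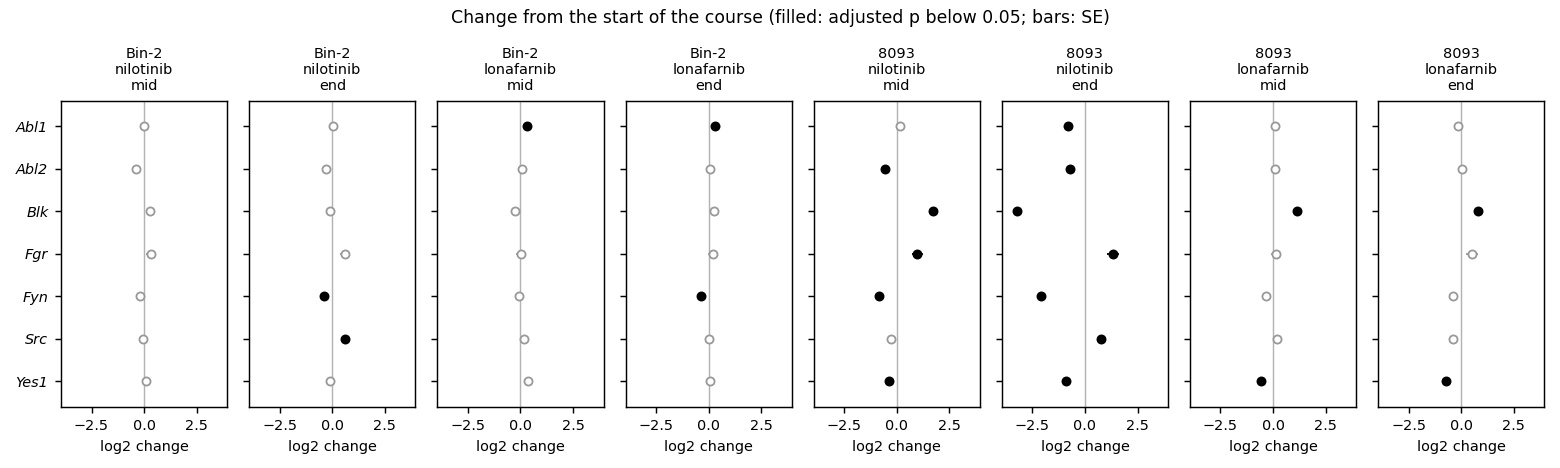
Log2 change from the start of the same course (horizontal axis; bars, SE) for each kinase and course, with filled points where the adjusted p was below 0.05. All 7 points are filled at the nilotinib end of 8093, where Blk lies at -3.21 and Fyn at -2.07, and 2 or fewer in each panel of Bin-2.

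Abl1 (chr2:31688244-31807093, GRCm38.p6) encodes the kinase that BCR/ABL is built from. Whether its probeset also reads the transgene was not tested. In 8093 with nilotinib Abl1 was 9.46, 9.38 and 9.45 on the start arrays, 9.51, 9.64 and 9.55 at the midpoint, and 8.55 and 8.68 at the end. Both end arrays lay below every other array of the series. Abl1 fell at that end by 0.82 ± 0.10 (2 arrays against 3; adjusted p = 6.23e-08), a 1.77-fold lower signal, and differed at the midpoint by 0.13 ± 0.09 (adjusted p = 0.234). The midpoint difference was called at 0.46 after quantile normalization and at 0.71 with arrays scaled to 1 interquartile range, and the end lay below the midpoint by a change of -0.95 ± 0.10 (adjusted p = 5.52e-09), or -1.71 with scaled arrays.

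In Bin-2 with lonafarnib Abl1 was 9.29, 9.11 and 9.33 at the start, 9.47, 9.56 and 9.60 at the midpoint, and 9.62, 9.47 and 9.55 at the end. Every midpoint and end array lay above every start array. Abl1 rose by 0.30 ± 0.09 at the midpoint (3 arrays each; adjusted p = 0.0223) and by 0.31 ± 0.09 at the end (adjusted p = 0.0328). The midpoint call was lost without start replicate 2 (0.24, adjusted p = 0.125) and without midpoint replicate 2 or 3 (adjusted p = 0.0673 and 0.0782), and the rise was 0.46 after quantile normalization and 0.69 with scaled arrays. The end call was lost without start replicate 1 or 2 or end replicate 1 or 3 (adjusted p of 0.0579 to 0.194). It was also lost after quantile normalization (0.29, adjusted p = 0.0585) and with scaled arrays (0.26, adjusted p = 0.236). Fits with a block for the replicate number (adjusted p = 0.0611) or letter (0.068) lost it too. The 9 nilotinib arrays of Bin-2 spanned 9.18 to 9.35 and neither time was called, and in 8093 with lonafarnib the differences were 0.09 ± 0.09 and -0.14 ± 0.10.

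Abl2 (chr1:156558590-156649619), the ABL1-related gene whose kinase also binds actin, was lower under nilotinib in 8093. Its start arrays read 8.003, 7.98 and 7.99, the midpoint arrays 7.80, 7.43 and 7.10, and the end arrays 7.30 and 7.24. No midpoint or end array reached the start. The change was -0.55 ± 0.13 at the midpoint (adjusted p = 0.000834) and -0.72 ± 0.15 at the end (adjusted p = 0.000125), and the midpoint change was not called after quantile normalization (-0.20, adjusted p = 0.172). End and midpoint differed by -0.17 ± 0.15 (adjusted p = 0.315), a difference that was called without midpoint replicate 3 (-0.34, adjusted p = 0.0448), after quantile normalization (-0.57, adjusted p = 0.000603) and with scaled arrays (-0.45, adjusted p = 0.0118). In Bin-2 with nilotinib Abl2 was 7.97, 8.12 and 8.09 at the start, 7.60, 7.72 and 7.65 at the midpoint, and 7.83, 7.64 and 7.78 at the end. Midpoint and end arrays lay below every start array here too, but neither the midpoint (-0.41 ± 0.13, adjusted p = 0.0861) nor the end (-0.31 ± 0.13, adjusted p = 0.148) was called. Under lonafarnib the largest difference of Abl2 from a start was 0.09 ± 0.13, in 8093.

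Blk (chr14:63372837-63417187) encodes the SRC kinase of B lineage cells, where it acts below the pre-B and B cell receptors. It had the widest spread of the 7 kinases across the 12 groups, with means between 6.19 and 11.13. In 8093 with nilotinib it was 9.36, 9.48 and 9.35 at the start, 11.40, 10.80 and 11.18 at the midpoint, and 6.13 and 6.24 at the end. The 3 times did not overlap, with the midpoint above and the end below the start. Blk rose by 1.73 ± 0.12 at the midpoint (3.33-fold; adjusted p = 9.5e-13) and fell by 3.21 ± 0.13 at the end (9.25-fold lower; adjusted p = 1.4e-18). The pre-B markers fell with it at the end (14 of 17 lower and 2 higher), where 44.5% of all genes were called. At the midpoint 5 of 17 fell and 2 rose, where 50.1% of all genes were called.

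Under lonafarnib Blk in 8093 was 9.40, 9.55 and 9.30 at the start, 10.50, 10.59 and 10.62 at the midpoint, and 10.42 and 10.04 at the end. All drug-exposed arrays of that course lay above its start. The rise was 1.15 ± 0.12 at the midpoint (2.22-fold; adjusted p = 8.07e-08) and 0.81 ± 0.13 at the end (1.76-fold; adjusted p = 9.71e-05), and the pre-B marker means of the 3 times were 8.43, 8.17 and 8.27. At that midpoint 10 of 13 mast cell markers rose, and at that end 5 of 13, where 10.8% and 8.71% of all genes were called. In Bin-2 Blk stayed between 10.23 and 10.88 on all 18 arrays, and no change from a start was called. Between the lonafarnib end (10.85, 10.80 and 10.72) and midpoint (10.29, 10.23 and 10.26) of Bin-2 Blk was higher at the end by 0.53 ± 0.12 (adjusted p = 0.00101), a difference of 0.00 (adjusted p = 0.999) with arrays scaled to 1 interquartile range. The pre-B marker mean was 8.99 at that end and 8.57 at that midpoint. Of the 17 markers 10 were called higher at the end, where 29.7% of all genes were called.

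Fyn (chr10:39369743-39565381) encodes a SRC kinase of lymphocytes, mast cells and many other tissues. With nilotinib in 8093 it read 8.91, 8.82 and 8.92 at the start, 8.20, 7.77 and 8.11 at the midpoint, and 7.09 and 6.54 at the end. The 3 times formed separate, descending ranges. Fyn fell by 0.86 ± 0.12 at the midpoint (1.81-fold lower; adjusted p = 3.69e-07), -0.51 after quantile normalization, and, at the end, fell by 2.07 ± 0.13 (4.20-fold lower; adjusted p = 2.83e-14). At that end 14 of the 17 pre-B markers also fell and 12 of 13 mast cell markers rose, where 44.5% of all genes were called. The part of these markers in the fall of Fyn was not tested.

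Smaller falls of Fyn were called in Bin-2. With nilotinib its start arrays held 8.70, 8.68 and 8.80, the midpoint arrays 8.59, 8.44 and 8.52, and the end arrays 8.32, 8.18 and 8.47, and the end change was -0.40 ± 0.12 (adjusted p = 0.024). With lonafarnib Fyn was 8.58, 8.60 and 8.76 at the start, 8.68, 8.58 and 8.54 at the midpoint and 8.24, 8.23 and 8.31 at the end, with an end change of -0.39 ± 0.12 (adjusted p = 0.033). No end array of Bin-2 reached its start arrays. Of the 13 mast cell markers 11 rose at that nilotinib end and 3 fell at that lonafarnib end, where 8.89% and 8.07% of all genes were called. The nilotinib call was lost without any 1 of 5 arrays, all but end replicate 3 (adjusted p up to 0.154), and the lonafarnib call without any 1 of its 6 arrays (adjusted p of 0.0542 to 0.144). In 8093 with lonafarnib Fyn was 8.99, 9.02 and 8.86 at the start, 8.55, 8.62 and 8.67 at the midpoint and 8.57 and 8.58 at the end. Those ranges did not overlap with the start, and the differences of -0.34 ± 0.12 (adjusted p = 0.057) and -0.38 ± 0.13 (adjusted p = 0.066) were not called. A fit with a trended, robust prior did call them (adjusted p = 0.0333 and 0.0389). Between the lonafarnib end and midpoint of Bin-2 Fyn fell by 0.34 ± 0.12 (adjusted p = 0.0267), a call lost without any 1 of 4 of the 6 arrays (adjusted p up to 0.0836), and the change was -0.65 with scaled arrays.

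Src (chr2:157423906-157471838), the broadly expressed founder of its family, rose at the nilotinib end of both lines. In 8093 it was 6.22, 6.53 and 6.73 at the start, 6.06, 6.498 and 6.13 at the midpoint, and 7.15 and 7.36 at the end, and both end arrays lay above every other array of the series. The rise at that end was 0.76 ± 0.18 (1.70-fold; adjusted p = 0.000729). In Bin-2 with nilotinib Src was 5.50, 5.45 and 5.80 at the start, 5.399, 5.73 and 5.47 at the midpoint, and 6.18, 6.12 and 6.22 at the end. The end arrays lay above all of the start and midpoint. Src rose there by 0.59 ± 0.16 (1.51-fold; adjusted p = 0.0155), a call lost after quantile normalization (0.45, adjusted p = 0.0834), with scaled arrays (0.44, adjusted p = 0.0603) or without start replicate 1 or 2 or end replicate 1 (adjusted p of 0.0561 to 0.0921). On the same arrays 11 of 13 mast cell and 15 of 15 macrophage markers rose, where 8.89% of all genes were called. The part of these markers in the rise of Src was not tested. It exceeded the Bin-2 midpoint by 0.64 ± 0.16 (adjusted p = 0.0357), a call lost without any 1 of 5 of the 6 arrays (adjusted p up to 0.159) or after quantile normalization (adjusted p = 0.0867).

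Under lonafarnib Src was called once. In 8093 its arrays read 6.48, 6.57 and 6.61 at the start, 6.999, 6.86 and 6.43 at the midpoint and 6.25 and 6.03 at the end. The end arrays lay below those of the start and midpoint, and Src fell at the end relative to the midpoint by 0.62 ± 0.18 (adjusted p = 0.0331). Leaving out either end array or midpoint replicate 1 or 2 lost that call (adjusted p of 0.0763 to 0.308).

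Yes1 (chr5:32611171-32687066), a broadly expressed relative of Src, averaged 3.17 over all arrays, within the lowest 9.96% of genes, so its folds are not exact. In 8093 it was 3.93, 3.802 and 3.27 at the nilotinib start, 3.40, 3.23 and 3.32 at the midpoint and 2.70 and 2.87 at the end. The end lay below both other times, while midpoint and start overlapped. Yes1 fell by 0.89 ± 0.16 at the end (adjusted p = 4.05e-05) and changed by -0.35 ± 0.15 at the midpoint (adjusted p = 0.047). The midpoint call was lost without start replicate 1 (-0.22, adjusted p = 0.266) or 2 or midpoint replicate 2 or 3. It was also lost with a trended prior (adjusted p = 0.0649), the 8093 arrays alone (0.0725), array weights (0.0952), the replicate block (0.057) and the block by letter (0.0661). The midpoint change was -0.55 without start replicate 3 and -1.01 with arrays scaled to 1 interquartile range. Its change of -0.53 ± 0.16 between end and midpoint lost its call without end replicate 1 (adjusted p = 0.0843) and turned to 0.18 with scaled arrays (adjusted p = 0.456).

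With lonafarnib in 8093 Yes1 was 3.90, 3.72 and 3.45 at the start, 3.07, 3.23 and 3.01 at the midpoint, and 2.89 and 3.04 at the end, so both later times lay below the start. It changed by -0.59 ± 0.15 (adjusted p = 0.00804) at the midpoint and -0.73 ± 0.16 (adjusted p = 0.0042) at the end. The midpoint call was lost without start replicate 1 (adjusted p = 0.0768) and the end call without end replicate 1 (adjusted p = 0.0663). Bin-2 arrays held 2.79 to 3.41, and no change of Yes1 was called in that line.

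Fgr (chr4:132974095-133001893) encodes the SRC kinase of neutrophils, monocytes and macrophages. With nilotinib in 8093 it was 5.91, 5.82 and 5.94 at the start, 6.78, 7.46 and 6.36 at the midpoint, and 8.02 and 6.41 at the end. All 5 drug-exposed arrays lay above the start, and the end arrays stood far apart. Fgr rose by 0.98 ± 0.25 at the midpoint (1.97-fold; adjusted p = 0.00159) and by 1.33 ± 0.28 at the end (2.51-fold; adjusted p = 0.000192). Without end replicate 1 the end difference was 0.52 and was not called (adjusted p = 0.121), and without end replicate 2 it was 2.14. Fgr did not differ by a call between end and midpoint (0.35 ± 0.28, adjusted p = 0.286), but did without end replicate 2 (1.15, adjusted p = 0.000634). In Bin-2 with nilotinib Fgr was 6.08, 5.85 and 6.18 at the start, 6.44, 6.11 and 6.55 at the midpoint and 6.91, 6.82 and 6.20 at the end. The end lay above the start by 0.61 ± 0.25, which was not called (adjusted p = 0.142) except in fits to the Bin-2 arrays alone, with array weights, with both starts as baseline or without end replicate 3. Lonafarnib gave no called change, and its largest difference was 0.52 ± 0.28 at the end of 8093.

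Within the midpoint and end groups of the nilotinib courses, the macrophage markers of the same arrays largely followed Fgr. In 8093 with nilotinib their mean was 8.07, 8.81 and 7.89 on the midpoint arrays and 9.01 and 7.46 on the end arrays, the order of Fgr within each group. In Bin-2 with nilotinib it was 8.38, 7.04 and 7.88 at the midpoint and 9.07, 9.11 and 7.64 at the end, and at both times the array lowest in Fgr was also lowest in markers. On the start arrays the markers did not follow Fgr. Their mean there was 4.81, 4.86 and 4.74 in 8093, the reverse of the order of Fgr. In Bin-2 it was 5.57, 5.52 and 5.27, lowest on the array highest in Fgr. Between the lines, the nilotinib end of Bin-2 had the higher marker mean (8.61 against 8.23) but the lower Fgr (6.64 against 7.22). Of the 15 markers, the Bin-2 nilotinib course had 13 higher by its midpoint and 15 by its end, and the 8093 one 13 and 14. Of all genes 3.47% and 8.89% were called there in Bin-2, and 50.1% and 44.5% in 8093. Lyz2, the lysozyme of macrophages, averaged 12.13 when Bin-2 ended its nilotinib course and 12.56 when 8093 did. Under lonafarnib the markers and Fgr ran differently. The marker mean at start, midpoint and end was 5.41, 6.56 and 5.83 in Bin-2 and 4.82, 6.09 and 5.32 in 8093. Fgr averaged 5.87, 5.89 and 6.07 in Bin-2 and 5.86, 6.01 and 6.38 in 8093. At each lonafarnib midpoint 7 of 15 macrophage markers were higher, where 16.5% (Bin-2) and 10.8% (8093) of all genes were called. The part of these cells in the rise of Fgr was not tested.

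**Figure D3:**
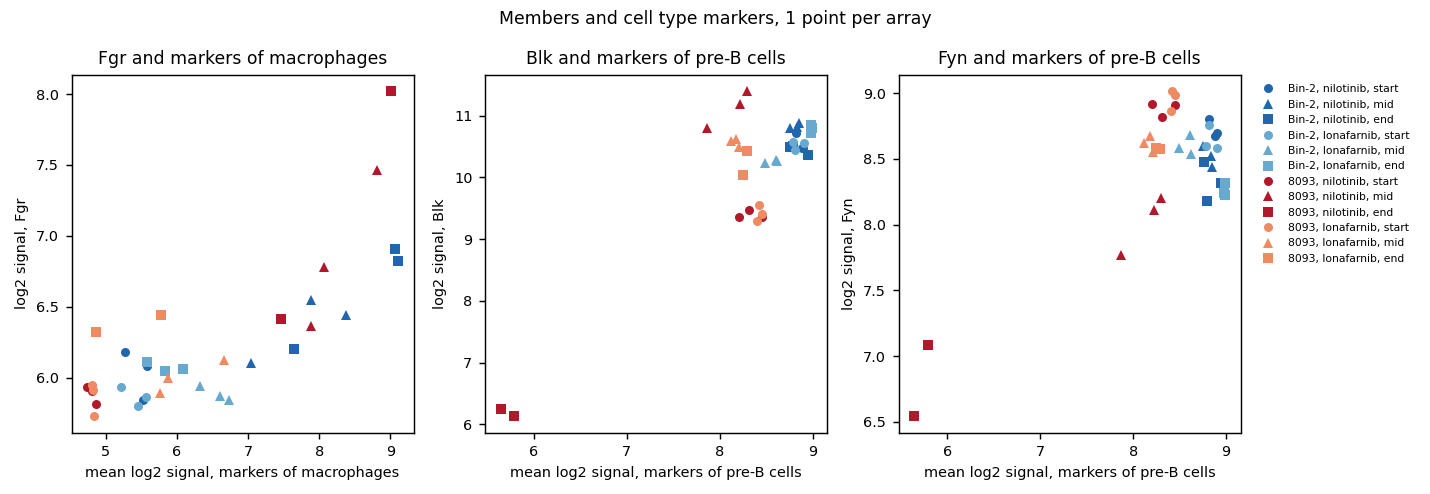
Each point is 1 array, with the mean log2 signal of a marker list on the horizontal axis and the log2 signal of a kinase on the vertical axis. Colours give line and drug, and shapes the time. The highest Fgr value (8.02) stands at a macrophage marker mean of 9.01, and the lowest Blk and Fyn values belong to the 2 nilotinib end arrays of 8093, with pre-B marker means of 5.79 and 5.64.

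Across the 12 groups the nilotinib end of 8093 had the lowest mean of 5 kinases, Abl1 (8.61 ± 0.09, SD, n = 2), Abl2 (7.27 ± 0.04), Blk (6.19 ± 0.08), Fyn (6.81 ± 0.38) and Yes1 (2.78 ± 0.12). For Abl1, Blk and Fyn its arrays lay below those of every other group, while for Yes1 they overlapped arrays of Bin-2 with nilotinib. Abl2 overlapped with the nilotinib midpoint of 8093 (7.44 ± 0.35, n = 3) at the next place. At the top, Src at the nilotinib end of 8093 (7.26 ± 0.15) did not overlap the lonafarnib midpoint of 8093 (6.76 ± 0.30). Neighbours overlapped everywhere in the order of Fgr, whose highest means were the nilotinib end (7.22 ± 1.14) and midpoint (6.87 ± 0.55) of 8093. For Blk the 8093 starts (9.40 ± 0.07 and 9.42 ± 0.13) lay next above the nilotinib end and below all other groups, and the 6 Bin-2 means lay between 10.26 and 10.83.

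Promoters were read from RefSeq (GRCm38.p6) as the 300 bases from 250 before to 50 after a start, and 7 of the 9 kinases matched, with 9 promoters. Blk and Lyn had no entry. Fgr and Src are shown since both rose at the nilotinib end of 8093, and Fyn since it fell there; capitals mark TTCCTC, the minus strand form of GAGGAA, a core sequence bound by PU.1 and other ETS factors. The promoters lie at chr4:132973845-132974144, chr2:157424043-157424342 and chr10:39369549-39369848, all on the plus strand.
Fgr: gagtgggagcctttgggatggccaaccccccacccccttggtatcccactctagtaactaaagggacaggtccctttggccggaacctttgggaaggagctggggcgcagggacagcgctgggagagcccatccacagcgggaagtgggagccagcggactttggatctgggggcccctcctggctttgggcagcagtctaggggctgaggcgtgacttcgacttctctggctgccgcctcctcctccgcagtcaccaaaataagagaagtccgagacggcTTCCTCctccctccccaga
Src: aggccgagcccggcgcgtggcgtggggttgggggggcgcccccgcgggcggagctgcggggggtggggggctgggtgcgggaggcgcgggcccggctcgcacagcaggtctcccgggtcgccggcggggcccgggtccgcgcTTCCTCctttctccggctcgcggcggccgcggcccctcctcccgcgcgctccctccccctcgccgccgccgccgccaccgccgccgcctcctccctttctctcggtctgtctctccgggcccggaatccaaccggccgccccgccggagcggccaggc
Fyn: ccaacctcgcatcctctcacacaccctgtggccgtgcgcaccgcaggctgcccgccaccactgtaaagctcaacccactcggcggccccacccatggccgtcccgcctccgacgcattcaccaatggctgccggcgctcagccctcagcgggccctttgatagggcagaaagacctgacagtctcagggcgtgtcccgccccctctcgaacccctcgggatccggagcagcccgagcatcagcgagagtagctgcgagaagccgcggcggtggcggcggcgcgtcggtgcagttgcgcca

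GAGGAA was searched on both strands and occurred in 4 of the 9 kinase promoters, in Fgr at base 31 after the start, in Src at base -108, in a promoter of Abl1 and in a promoter of Lck, against 28.3% of 32851 promoters. An EBF1 motif (TCCC, any 2 bases, GGGA, on both strands) was in 0 of 9 (0.904% of all promoters) and the GATA motif GATAAG in 0 of 9 (7.44%), which says only that these letters are not in these windows. The Fgr promoter held 11 CpG, that of Src 47, that of Fyn 31, that of Yes1 42, that of Abl2 31, those of Abl1 23 and 20 and those of Lck 7 and 5, against a median of 7 over all promoters.

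Before drug the lines differed in 5 of 7 kinases, where 20.1% of all genes were called (6 arrays each). Blk was higher in Bin-2, at 10.54 against 9.41 in 8093, a difference of 1.13 ± 0.08 (2.19-fold; adjusted p = 4.54e-12). The 6 Bin-2 start arrays spanned 10.45 to 10.72 and those of 8093 9.30 to 9.55. Src was lower in Bin-2 (5.64 against 6.53; -0.89 ± 0.11, adjusted p = 3.8e-07), and so was Yes1 (2.99 against 3.68; -0.69 ± 0.10, adjusted p = 5.98e-06). Fyn (-0.23 ± 0.08, adjusted p = 0.0407) and Abl1 (-0.19 ± 0.06, adjusted p = 0.0307) were slightly lower in Bin-2, but these calls ended after quantile normalization (adjusted p = 0.0926 and 0.138). The Fyn call was also lost on leaving out any 1 of 8 arrays, and the Abl1 call on leaving out any 1 of 7, in both lines (adjusted p up to 0.0883 and 0.108). The genetic background and all other differences between the leukaemias cannot be told apart here, since each line came from 1 mouse.

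The drug courses were compared as the nilotinib change minus the lonafarnib change within a line. At the end of 8093 5 of 7 kinases differed, where 33.2% of genes did. Blk changed by -3.21 with nilotinib and 0.81 with lonafarnib, a difference of -4.02 ± 0.18 (adjusted p = 1.95e-16), and Src by 0.76 and -0.42 (1.18 ± 0.25, adjusted p = 0.000427). Fyn (-1.69 ± 0.18), Abl2 (-0.75 ± 0.21) and Abl1 (-0.68 ± 0.14) were lower with nilotinib. At the midpoint of 8093 3 of 7 differed, where 26.8% of genes did, with Abl2 (-0.64 ± 0.18) and Fyn (-0.52 ± 0.16) lower and Blk (0.58 ± 0.17) higher with nilotinib. The Fyn call there was lost without nilotinib midpoint replicate 2 (-0.39, adjusted p = 0.0772) or lonafarnib start replicate 3 (-0.47, adjusted p = 0.0541), and after quantile normalization those of Fyn (-0.27, adjusted p = 0.26) and Abl2 (-0.38, adjusted p = 0.0888) were. Blk stood at 1.34 with scaled arrays. The midpoint difference of Fgr (0.84, adjusted p = 0.0779) was called without nilotinib midpoint replicate 3 (1.09, adjusted p = 0.0248). It was also called after quantile normalization (1.06, adjusted p = 0.0243) and with scaled arrays (0.90, adjusted p = 0.0418). Array weights and the block by letter called it too (adjusted p = 0.0364 and 0.0454). At the end the Fgr difference was 1.62 without nilotinib end replicate 2. Src was called at the midpoint without lonafarnib midpoint replicate 3 (-0.64, adjusted p = 0.039). In Bin-2 limma called 0 of 7 at the midpoint, where 1.48% of genes were called, and 0 of 7 at the end, where 9.51% were. In Bin-2 an unadjusted p below 0.05 was met by 3 kinases at each time, among 2903 genes (midpoint) and 4352 (end). A fit with array weights called 2 kinases at each time, and its share of all genes was not taken. The doses were set for each line, and the days of the ends differed between the drugs. In 8093 the midpoint was day 3 with 5 to 10% viable cells under nilotinib and day 4 with 20% under lonafarnib. Drug, day and viability cannot be told apart there.

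The lines were compared as the Bin-2 change minus the 8093 change. Doses differed between the lines, as did the days of the ends and of the lonafarnib midpoints, so line, dose and day cannot be told apart. At the lonafarnib midpoint viability differed too (5 to 10% in Bin-2, 20% in 8093) and cannot be told apart from these. At the nilotinib end 4 of 7 kinases differed, where 30.6% of genes did, and in all 4 the Bin-2 change lay above that of 8093. Blk changed by -0.10 in Bin-2 and -3.21 in 8093 (3.11 ± 0.18, adjusted p = 1.64e-14), Fyn by -0.40 and -2.07 (1.67 ± 0.17, adjusted p = 5.03e-09) and Abl1 by 0.02 and -0.82 (0.84 ± 0.14, adjusted p = 1.3e-05). Src, which rose at this end in both lines, differed by -0.17 ± 0.24 (adjusted p = 0.65). At the nilotinib midpoint 2 of 7 differed, where 26.0% of genes did: Blk (-1.46 ± 0.17) and Fyn (0.65 ± 0.16). At the lonafarnib midpoint 2 of 7 differed against 4.20% of genes, Blk (-1.42 ± 0.17) and Yes1 (0.95 ± 0.21), and at the lonafarnib end 1 of 7, Yes1 (0.78 ± 0.22), against 4.61%. That last call was lost without any 1 of 9 of the 11 arrays (adjusted p up to 0.146), kept without Bin-2 end replicate 1 or 8093 start replicate 3. The same Yes1 call was lost after quantile normalization (0.76, adjusted p = 0.0723), with scaled arrays (0.76, adjusted p = 0.112) and with the block by letter (adjusted p = 0.102). With scaled arrays Blk differed by -2.26 at the nilotinib midpoint, and the calls of Fyn there (0.37, adjusted p = 0.134) and of Yes1 at the nilotinib end (0.54, adjusted p = 0.13) and lonafarnib midpoint (0.78, adjusted p = 0.0669) were lost. The Fyn call was lost after quantile normalization too (0.35, adjusted p = 0.139). At the same midpoint Abl1 was called with scaled arrays (-0.71, adjusted p = 0.00184) and after quantile normalization (-0.43, adjusted p = 0.0178), and Yes1 with scaled arrays (0.95, adjusted p = 0.00367) and with both starts as baseline (0.53, adjusted p = 0.0215). Calls gained by leaving out 1 array were Fgr at the nilotinib end (-1.53 without 8093 end replicate 2), Yes1 at the nilotinib midpoint (0.66 without 8093 start replicate 3, 0.58 without Bin-2 midpoint replicate 2) and Blk at the lonafarnib end (-0.75 without 8093 end replicate 2).

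**Figure D4:**
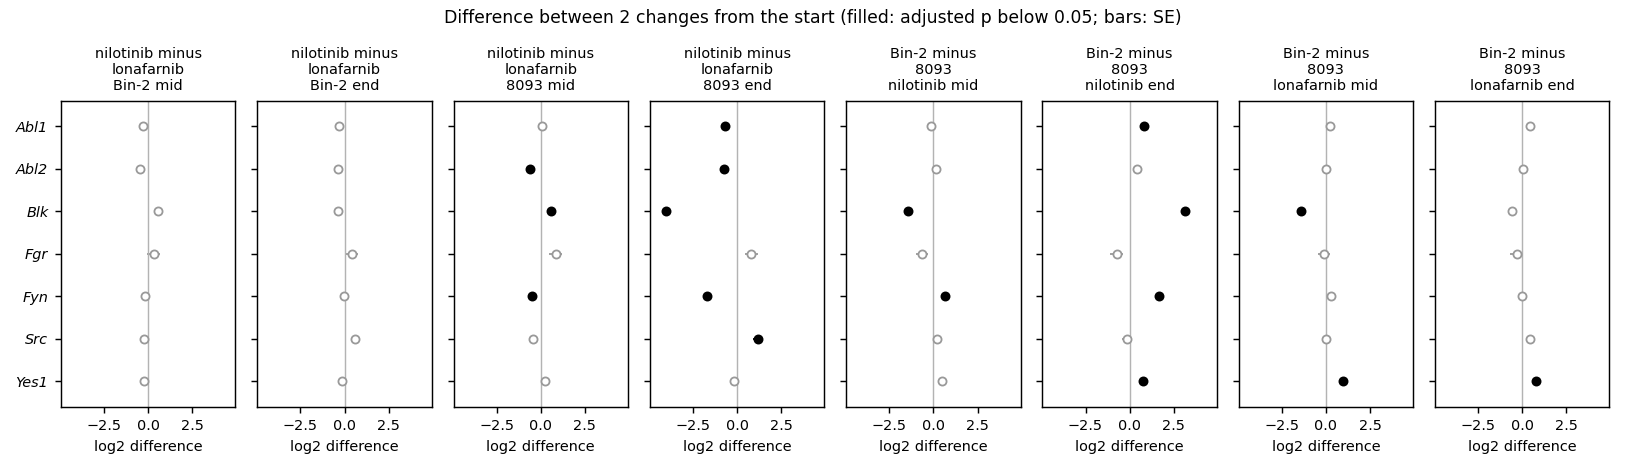
Difference between 2 changes from the start, in log2 units on the horizontal axis with SE bars, for each kinase; filled points have an adjusted p below 0.05. The 4 left panels give nilotinib minus lonafarnib and the 4 right panels Bin-2 minus 8093, and Blk lies at -4.02 and 3.11 in the panels of the ends in 8093 and of nilotinib.

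Partners, regulators and substrates of these kinases were followed in 8 lists with 71 measured genes. At the nilotinib end of 8093 35 rose and 15 fell, where 44.5% of all genes were called, and at the midpoint 27 rose and 11 fell, where 50.1% were. The median change of the 71 was 0.30 at that end and 0.15 at that midpoint, where all genes had -0.15 and 0.03. Receptor chains and scaffolds parted at that end, with 7 of 12 higher and 4 lower. Ms4a2, the beta chain of the IgE receptor, rose by 9.17 ± 0.36 and the adaptors Lat2 and Lcp2 by 5.72 ± 0.24 and 5.61 ± 0.22, while the B cell receptor chains Cd79a (-4.24 ± 0.13) and Cd79b (-4.16 ± 0.15) and the inhibitory receptor Cd72 (-1.41 ± 0.14) fell. Of 6 SYK and TEC family kinases 3 rose and 1 fell, to be read, like the other list counts at this end, against the 44.5% of all genes called. Txk rose by 5.33 ± 0.19, Btk by 1.60 ± 0.12 and Syk by 0.78 ± 0.13, and Zap70, the SYK relative of T cells, fell by 0.63 ± 0.17. Ms4a2 was also among the mast cell markers given above, and Cd79a and Cd79b among the pre-B markers.

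Among 15 effectors and substrates 7 rose and 4 fell at this end. The adaptor Fyb rose by 5.85 ± 0.31, the phospholipase Plcg1 by 3.04 ± 0.16 and the adaptor Sla by 2.65 ± 0.17, while Sla2 (-3.89 ± 0.12), the exchange factor Vav3 (-1.94 ± 0.20) and Plcg2 (-1.31 ± 0.17), the other phospholipase of its kind, fell. Of 17 ABL partners and substrates 9 rose and 3 fell (44.5% of all genes were called), with the adaptor Gab2 at 2.11 ± 0.13 and the phosphatase Inpp5d at 1.36 ± 0.11, and with the ubiquitin ligase Cbl at -1.12 ± 0.16 and Bcr at -0.69 ± 0.17. Phosphatases rose in 6 of 8 cases and fell in 1, Ptpn12 by 2.19 ± 0.24 and Ptpn22 by 1.31 ± 0.15. Csk fell by 0.28 ± 0.11 at the end (adjusted p = 0.0473), and its midpoint change was -0.29 ± 0.10 (adjusted p = 0.0199). Of 6 other receptor kinases that nilotinib blocks, Kit rose by 6.90 ± 0.20 and Csf1r by 3.999 ± 0.37. Kit was also among the mast cell markers given above, and Csf1r among the macrophage markers.

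At the nilotinib midpoint of 8093 the same scaffolds led, with Ms4a2 at 6.02 ± 0.33, Lcp2 at 3.38 ± 0.20 and Lat2 at 3.16 ± 0.22 among 8 of 12 that rose, and Cd79b (-0.66 ± 0.14) and Cd79a (-0.45 ± 0.12) among those that fell. Ptpn6, a phosphatase that opposes receptor signalling, fell by 0.54 ± 0.10, and Ptk2b, a kinase of the focal adhesion kinase family, rose by 0.77 ± 0.11. With nilotinib in Bin-2 3 genes rose and 3 fell at the midpoint, and 13 rose and 3 fell at the end, where 3.47% and 8.89% of all genes were called. At that end the median change was 0.10 over the 71 and -0.03 over all genes. Ms4a2 rose there by 4.13 ± 0.33, Fcgr2b, the inhibitory IgG receptor, by 2.70 ± 0.36, Csf1r by 2.62 ± 0.33 and Kit by 1.23 ± 0.18. Zap70 (-0.87 ± 0.16), Sla2 (-0.84 ± 0.11) and Cd79a (-0.53 ± 0.12) fell there.

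With lonafarnib 8 of the 71 rose and 1 fell at the midpoint of 8093, and 9 rose and 7 fell at its end (10.8% and 8.71% of all genes were called), with a median of -0.01 at the end against -0.03 over all genes. At that end Lcp2 rose by 1.72 ± 0.22, Ms4a2 by 1.45 ± 0.36 and Plcg1 by 1.20 ± 0.16, while Ptprj, a receptor phosphatase that acts on SRC kinases, fell by 0.92 ± 0.15, and the adaptor Lat (-0.89 ± 0.20) and Pag1 (-0.76 ± 0.17), the membrane anchor of CSK, fell too. In Bin-2 2 rose and 9 fell at the midpoint, where 16.5% of all genes were called, among them Cd79b (-0.64 ± 0.14) and Csk (-0.41 ± 0.10). At that end 5 rose and 6 fell, against 8.07% of all genes called, with a median of 0.02 against 0.01 over all genes. Kit (-2.44 ± 0.18), Fyb (-2.31 ± 0.27), Zap70 (-1.38 ± 0.16) and Cd72 (-0.98 ± 0.13) fell, and Tec rose by 0.90 ± 0.13.

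The genes most like a kinase over the 12 group means were found for the 3 kinases whose means had an SD of at least 0.5, among 2348 genes that varied as much. The points share arrays and normalization, and r is a description. Blk was most like Dock9 (r = 0.98), Chst3 (0.98) and Dusp5 (0.97). Within the 6 groups of Bin-2 these were 0.48, 0.44 and 0.83, and within those of 8093 0.99, 0.98 and 0.97. Fyn was most like Egln3 (0.99), Cdca7 (0.99) and Traf4 (0.98), with 0.95, 0.84 and 0.93 within Bin-2. Src was most like Kdm5b, Vps37b and Gpm6a (0.93 each), with 0.94, 0.25 and 0.94 within Bin-2 and 0.83, 0.92 and 0.87 within 8093. Among the kinases themselves Fgr ran opposite to Abl2 (r = -0.91; -0.83 within Bin-2 and -0.93 within 8093), while Abl1 and Blk, at 0.80 over the 12 groups, gave -0.19 within Bin-2 and 0.94 within 8093.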

How the data were processed

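The authors deposited processed probeset signals for 34 arrays, read as log2 from their range of 1.02 to 14.37. Partek is the processing tool per the submitters' processing notes; its version and its role were not given in the sources used here, nor was how background was corrected or probes were normalized and combined. Biotinylated cRNA was made from Trizol-extracted RNA, per the labels. For lonafarnib the design text has mM where the treatment protocol has µM, the unit used here. Start and end samples came from a 10-cm dish, and midpoint samples from a larger dish or from pooled dishes. That each number marks a separate plate comes from the labels, so p-values measure the spread between plates, or pools of dishes, of 1 line.

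Of 35557 probesets, 21789 had 1 gene symbol in the probe annotation and gave 19938 genes, each by its probeset of highest mean. Limma 3.58.1 in R 4.3.3 fitted a mean for each of 12 groups to all 34 arrays (lmFit, eBayes), with two-sided p-values adjusted by Benjamini-Hochberg over 19938 genes in each of 23 comparisons. The fit assumes 1 spread for a gene in all groups. The fitting script was tested on simulated data with known fold changes. The number of arrays limits the precision, and raw intensities were not used here.

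The members are named in every comparison where they were measured. Of the partner lists up to 3 called genes per direction with the largest changes were named, and the 3 genes most like a member were taken by Pearson r over the group means. Markers named are the brightest of their list. Members, lists and tests were chosen with earlier results of these data known. Alternatives tried were a trended robust prior, quantile normalization, scaling to 1 interquartile range, array weights, arrays of 1 line and both starts as baseline. Further ones were other probeset summaries, leaving out genes whose highest group mean was below 5, replicate blocks, and leaving out each array. All were read for the 7 kinases only, so calls of partner and marker genes were not checked under them.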

Additional observations from a re-analysis of the deposited data

Results flagged for a closer look

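Each value here is a difference between 2 changes from the start that passed an adjusted p of 0.05 in limma, by a test of the difference itself, in log2 units. For nilotinib minus lonafarnib in 8093, the midpoint differences were -0.64 for Abl2, 0.58 for Blk and -0.52 for Fyn, and the end differences -0.68 for Abl1, -0.75 for Abl2, -4.02 for Blk, -1.69 for Fyn and 1.18 for Src. For Bin-2 minus 8093 with nilotinib, Blk differed by -1.46 and Fyn by 0.65 at the midpoint, and Abl1 by 0.84, Blk by 3.11, Fyn by 1.67 and Yes1 by 0.78 at the end. With lonafarnib, Blk differed by -1.42 and Yes1 by 0.95 at the midpoint, and Yes1 by 0.78 at the end. Blk is the kinase whose change differed between the lines in both directions, being lower in Bin-2 at both midpoints and higher at the nilotinib end.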

How the results depend on the processing

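Of 161 results for the kinases 52 were called, 29 of them under every alternative. Of the 109 not called, 26 were called in the same direction under at least 1, apart from the reversal of Abl1 given next. Both reversals came from scaling arrays to 1 interquartile range: Yes1 in 8093, nilotinib end against midpoint, at 0.18 (adjusted p = 0.456), and Abl1 in Bin-2, lonafarnib end against midpoint, at -0.43 (adjusted p = 0.00653). Their cause was not tested. The counts of kinases below stand without a share of all genes, which was not taken under the alternatives. That scaling called 0 kinases for the Bin-2 nilotinib end against midpoint, 0 for the Bin-2 lonafarnib end, 3 between the lines at the start, 2 for nilotinib minus lonafarnib at the Bin-2 midpoint, and, for Bin-2 minus 8093 with lonafarnib, 1 at the midpoint and 0 at the end. Quantile normalization called 1 at the Bin-2 nilotinib end, 0 between that end and midpoint, 1 at the Bin-2 lonafarnib end and 3 between the lines. Array weights called 2 at the Bin-2 nilotinib midpoint, 4 at its end, 2 between these, 2 for nilotinib minus lonafarnib at each Bin-2 time, and 3 for Bin-2 minus 8093 at the lonafarnib end. At that last contrast the trended prior called 3, both starts as baseline 3 and dim genes left out 2, and dim genes left out, which takes Yes1 from the test, gave 1 at the lonafarnib midpoint. The trended prior called 1 and the arrays of Bin-2 alone 1 for nilotinib minus lonafarnib at the Bin-2 midpoint, the arrays of 8093 alone 0 for its lonafarnib end against midpoint, and both starts as baseline 2 at the Bin-2 lonafarnib midpoint.

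Deviations of same-numbered arrays from their group means correlated between -0.18 and 0.16. The mean correlation in 8093 with lonafarnib was 0.05, against -0.03 for arrays of unlike number. In the other courses it lay below that of arrays of unlike number. With group means of only 2 or 3 arrays, these values cannot decide whether the replicate numbers in the labels pair the arrays. With the replicate block 1 kinase was called at the Bin-2 lonafarnib end. The block also ended the calls of Yes1 at the 8093 nilotinib midpoint (adjusted p = 0.057) and of Abl1 between the lines at the start (adjusted p = 0.052). With the block by the letter in the descriptions, which differs in part from the number, 0 were called at the 8093 lonafarnib end against midpoint, 0 at the Bin-2 lonafarnib end, 3 between the lines and 0 for Bin-2 minus 8093 at the lonafarnib end.

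Leaving out each array in turn gave 1 to 2 calls at the 8093 lonafarnib midpoint, 1 to 2 at its end and 0 to 1 between them. In Bin-2 it gave 0 to 3 at the nilotinib end, 0 to 1 between that end and midpoint, 0 to 1 at the lonafarnib midpoint, 0 to 1 at its end and 1 to 2 between them. It gave 3 to 5 between the lines at the start and 0 to 1 for Bin-2 minus 8093 at the lonafarnib end. Where 8093 ends keep 1 array, that array is assumed to vary like the other groups. Yes1 lies near the low end of the signal range, and its size of change is limited by it.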

Other observations

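Values of the partner genes that the comparisons above leave out follow, as descriptions. Blnk, the adaptor that links SYK to phospholipase C in B cells, averaged 9.55 at the Bin-2 starts and 4.59 at the 8093 starts (4.96 ± 0.09, adjusted p = 4.24e-26), with Lat2 higher in Bin-2 by 2.05 and Lcp2 by 1.99. Zap70 was 5.71, 5.16 and 4.85 at the start, midpoint and end of Bin-2 with nilotinib and 5.93, 5.45 and 4.55 with lonafarnib, and the Bin-2 lonafarnib end change of Zap70 differed from that of 8093 by -0.90 ± 0.23 (adjusted p = 0.019). The change of Kit in Bin-2 minus that in 8093 was -5.67 ± 0.27 at the nilotinib end and -2.70 ± 0.27 at the lonafarnib end. The same difference for Sla2, an adaptor that dampens antigen receptor signals, was 3.05 ± 0.17 at the nilotinib end. Kit is among the mast cell markers and Blnk among the pre-B markers.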
